A study of Homo sapiens with 9 samples.

Results

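The inducible heat shock proteins described here are 5 genes, HSPA1A, HSPA1B, HSPH1, HSPA4L and HSPB1, of the 14884 genes that could be named in the expression table. They were taken by gene symbol, with every row of each, which gave 13 rows. They had been picked because chaperone genes stood higher with 1 or both drugs than with vehicle in these same arrays, so their differences between the groups are given as a description and without a test. All 5 lay above the level limit of 4.28 (log2) that left 7442 genes for testing.

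The cells were THP-1, a human monocytic leukaemia line, brought to a macrophage-like, unpolarised (M0) state with the phorbol ester PMA. Afterwards the cultures received osimertinib at 100 nM, cisplatin at 0.5 µM or vehicle, each for 16 h. All 3 groups therefore share the PMA step, and there were 3 replicates a group, called independent and biological in the labels, on 9 Affymetrix Human Gene 2.0 ST arrays. Osimertinib is a covalent inhibitor of the epidermal growth factor receptor and cisplatin is a platinum compound that crosslinks DNA; their doses differ, and a single line at 1 time point was sampled.

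Arrays of 1 group correlated with each other at 0.983 to 0.991 over the tested genes, and arrays of different groups at 0.943 to 0.985. Of 12 macrophage markers, 6 were named in the table and 4 lay above the level limit. CD68 averaged 9.74 with osimertinib, 9.95 with cisplatin and 9.44 with vehicle, and the receptor CSF1R averaged 8.86, 9.07 and 8.57 in the same order. The myeloid transcription factor SPI1 averaged 7.21, 7.23 and 7.21, CD14 lay at 4.40, 4.28 and 4.22, and LYZ and CD163 were below the limit in every group. CD68 and CSF1R were called higher with each drug (limma, adjusted p = 0.0012 and 0.00554 with osimertinib, 1.97e-05 and 1.05e-04 with cisplatin). The summed log2 value of the 6 macrophage markers ran from 35.3 to 36.3 with osimertinib, 35.8 to 37.0 with cisplatin and 35.0 to 35.2 with vehicle. Of 8 markers of other cell types 4 were named and 3 were above the limit, none of them higher by the test, and KRT18 was lower with each drug. The summed log2 value of these 4 was 21.1 to 21.4 with osimertinib, 20.9 to 21.3 with cisplatin and 20.3 to 21.0 with vehicle. The part of these markers in the heat shock values was not tested, and in such bulk RNA more cells of a type and more RNA per cell cannot be told apart.

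Heat shock proteins are molecular chaperones. HSP70 proteins such as HSPA1A and HSPA1B hold exposed hydrophobic stretches of unfolded proteins in a cycle driven by ATP, J-domain proteins start that cycle, and nucleotide exchange factors, among them the HSP110 relatives HSPH1 and HSPA4L, reset it. HSPB1 is a small heat shock protein that binds unfolding proteins without ATP. Their inducible genes are switched on by the transcription factor HSF1, which binds heat shock elements, short runs of the unit GAA and its reverse complement TTC in alternation.

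The sequences before the transcription starts show where these genes are alike and where they are not. The 250 bases upstream of each RefSeq start (GRCh38.p14) were searched for GAANNTTC and TTCNNGAA, the 2 ways in which a pair of neighbouring heat shock units can face each other. Each motif is its own reverse complement, so a match counts for both strands. Matches are in capitals and everything else is in lower case, 5′ to 3′ on the strand of the gene. The HSPA1A and HSPA1B windows lie on the plus strand at chr6:31815293-31815542 and chr6:31827488-31827737, the HSPB1 window on the plus strand at chr7:76302423-76302672 and the HSPH1 window on the minus strand at chr13:31162389-31162638. The first pair is shown because the array rows of HSPA1A and HSPA1B are hard to keep apart, HSPB1 because its match lies elsewhere, and HSPH1 because it has none.
HSPA1A: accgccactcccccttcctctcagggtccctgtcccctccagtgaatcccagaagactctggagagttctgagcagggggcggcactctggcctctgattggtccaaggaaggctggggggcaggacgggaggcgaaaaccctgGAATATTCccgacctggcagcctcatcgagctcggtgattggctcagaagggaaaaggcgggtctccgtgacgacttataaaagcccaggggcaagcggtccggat
HSPA1B: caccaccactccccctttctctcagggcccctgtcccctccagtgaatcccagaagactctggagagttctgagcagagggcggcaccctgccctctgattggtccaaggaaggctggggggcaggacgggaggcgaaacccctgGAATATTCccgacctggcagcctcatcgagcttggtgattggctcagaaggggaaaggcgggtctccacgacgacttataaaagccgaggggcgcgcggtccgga
HSPB1: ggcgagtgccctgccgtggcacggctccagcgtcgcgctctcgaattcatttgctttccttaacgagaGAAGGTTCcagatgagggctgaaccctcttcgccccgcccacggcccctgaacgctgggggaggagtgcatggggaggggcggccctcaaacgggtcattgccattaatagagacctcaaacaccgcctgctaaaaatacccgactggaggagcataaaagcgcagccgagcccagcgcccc
HSPH1: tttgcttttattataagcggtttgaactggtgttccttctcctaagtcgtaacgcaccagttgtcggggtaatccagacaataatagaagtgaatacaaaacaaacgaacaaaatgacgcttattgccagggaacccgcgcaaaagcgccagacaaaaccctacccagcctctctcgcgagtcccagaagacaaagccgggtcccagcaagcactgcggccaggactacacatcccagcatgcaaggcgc

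HSPA1A and HSPA1B matched at 235 of 251 aligned positions (93.6%) in these windows. Both hold the match GAATATTC, which begins 106 bases before the start of HSPA1A and 105 bases before that of HSPA1B. Both also hold TATAAA, at 30 and 29 bases before the start, and 2 CCAAT motifs on the opposite strand. HSPB1 holds GAAGGTTC at 182 bases before its start and neither TATAAA nor CCAAT.

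HSPH1 holds none of these motifs in its window, which says only that these letters are not there. HSPA4L has 3 RefSeq starts on the plus strand of chromosome 4. The window before the outermost has no match. The one before the last start has neither pair motif, but holds TATAAA at 89 bases and CCAAT, on the opposite strand, at 188 bases. The window before the second start holds neither TATAAA nor CCAAT and has a single TTCNNGAA match, at 170 bases, shown with 10 bases on each side.
HSPA4L: ttccagatctTTCTCGAAcccgcagctt

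GAANNTTC was found in 5.78% and TTCNNGAA in 6.62% of all 35116 RefSeq windows of this length. TATAAA was found in 10.7% and CCAAT in 32%, each read on both strands. Longer elements of 3 such units in alternation, on either strand, occurred in 0.441% of windows and in none of the 5 genes. A match is a run of letters and not a site shown to be bound.

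The HSP70 genes HSPA1A and HSPA1B stood about 2.5-fold above vehicle with either drug, and the drugs overlapped. On its brightest rows HSPA1A (Entrez gene 3303, chr6:31815543-31817942) measured 9.20, 9.42 and 9.20 with osimertinib, 9.09, 9.30 and 9.27 with cisplatin and 7.90, 7.96 and 8.00 with vehicle, all on the log2 scale of the deposited values. Every treated array lay above every vehicle array, by at least 1.09, and the arrays of the 2 drugs were interleaved. The difference from vehicle was 1.32 with osimertinib (SE 0.072, 2.49-fold) and 1.26 with cisplatin (SE 0.072, 2.40-fold), and that between osimertinib and cisplatin was 0.05.

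HSPA1B (Entrez gene 3304, chr6:31827738-31830254) lies 9796 bases beyond HSPA1A and encodes an almost identical HSP70 protein. It measured 9.25, 9.33 and 9.20 with osimertinib, 9.15, 9.34 and 9.28 with cisplatin and 7.97, 7.95 and 7.89 with vehicle. Again the treated arrays were separate from vehicle and overlapped each other. The difference was 1.32 with osimertinib (SE 0.059, 2.51-fold), 1.32 with cisplatin (SE 0.059, 2.50-fold) and 0.0031 between the drugs. Leaving out 1 array at a time turned the sign between the drugs in both genes, at -0.02 to 0.09 for HSPA1A and -0.05 to 0.04 for HSPA1B (osimertinib minus cisplatin).

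HSPA1A and HSPA1B had 5 rows each, and not all of them were separate measurements. For HSPA1A, 3 of the 5 rows held the same 9 values, which left 3 distinct rows, whereas the 5 rows of HSPA1B all differed. Across the distinct HSPA1A rows the difference was 1.32 to 1.46 with osimertinib and 1.26 to 1.41 with cisplatin. Across the HSPA1B rows it was 1.01 to 1.43 with osimertinib and 1.01 to 1.40 with cisplatin, the lowest from a single row whose vehicle arrays read 7.79, 7.62 and 7.85. No row of either gene put the drugs further apart than 0.063, and in all 10 rows the arrays of both drugs lay above those of vehicle. Cisplatin replicate 1 was the lowest of the 3 cisplatin arrays in all 10 rows. This was not particular to these rows, since it was also the lowest in HSPH1 (9.29) and HSPB1 (8.31). In HSPA4L it was the highest (5.19). The probe sequences were not used here, and what the rows of these near-identical genes share was not tested.

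**Figure D1:**
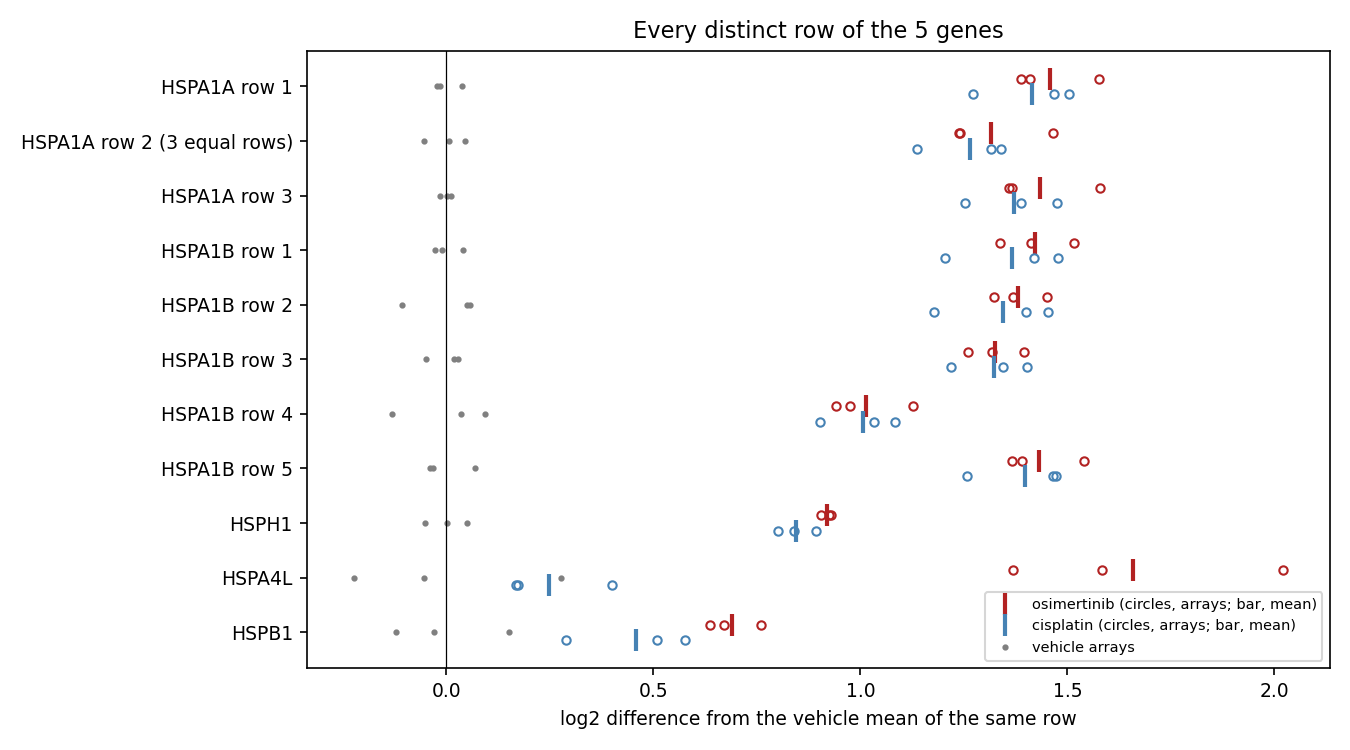
Log2 difference of each array from the vehicle mean of the same row (x axis), for the 11 distinct rows of the 5 genes (y axis). Circles are arrays, vertical bars are group means over 3 arrays and grey points are vehicle arrays. The 8 HSPA1A and HSPA1B rows sit near 1.0 to 1.5 with either drug, and HSPA4L is the only gene whose drug means are more than 1 log2 unit apart.

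The HSP110 genes HSPH1 and HSPA4L differed from each other in how they stood across the drugs. HSPH1 (Entrez gene 10808, chr13:31134973-31162388), which resets HSP70 and can hold unfolded proteins itself, measured 9.42, 9.42 and 9.40 with osimertinib, 9.29, 9.33 and 9.38 with cisplatin and 8.49, 8.44 and 8.54 with vehicle. Its treated arrays were at least 0.75 above all vehicle arrays, and the osimertinib arrays were above the cisplatin arrays by a gap of only 0.012. The difference from vehicle was 0.92 with osimertinib (SE 0.048, 1.89-fold) and 0.84 with cisplatin (SE 0.048, 1.80-fold), and the drugs differed by 0.07.

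HSPA4L (Entrez gene 22824, chr4:127781796-127840733), an HSP110 relative known in mouse from testis and from osmotic stress, was high with osimertinib alone. It measured 6.81, 6.38 and 6.16 with osimertinib, 5.19, 4.96 and 4.97 with cisplatin and 5.07, 4.57 and 4.74 with vehicle. The lowest osimertinib array was 0.97 above the highest cisplatin array, while the cisplatin and vehicle arrays overlapped. Its mean was 6.45 ± 0.33 with osimertinib, 5.04 ± 0.13 with cisplatin and 4.79 ± 0.25 with vehicle (SD, n = 3 each), the widest spread of the 5 genes in the osimertinib and vehicle groups. The difference from vehicle was 1.66 with osimertinib (SE 0.16, 3.16-fold) and 0.25 with cisplatin (SE 0.16, 1.19-fold). Osimertinib stood 1.41 above cisplatin (SE 0.16, 2.66-fold). Leaving out 1 array at a time moved that value between 1.23 and 1.55. The difference for cisplatin minus vehicle was 0.14 without vehicle replicate 2 and 0.39 without vehicle replicate 1.

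The small heat shock gene HSPB1 (Entrez gene 3315, chr7:76302673-76304292) showed a smaller and graded difference. It measured 8.70, 8.78 and 8.66 with osimertinib, 8.31, 8.60 and 8.53 with cisplatin and 8.18, 7.90 and 7.99 with vehicle. The groups were ordered with no overlap, but the gap between the lowest osimertinib and the highest cisplatin array was 0.06 and that between the lowest cisplatin and the highest vehicle array 0.14. The difference was 0.69 with osimertinib (SE 0.084, 1.61-fold), 0.46 with cisplatin (SE 0.084, 1.37-fold) and 0.23 between osimertinib and cisplatin (SE 0.084). Leaving out 1 array moved the last value between 0.15 and 0.29.

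**Figure D2:**
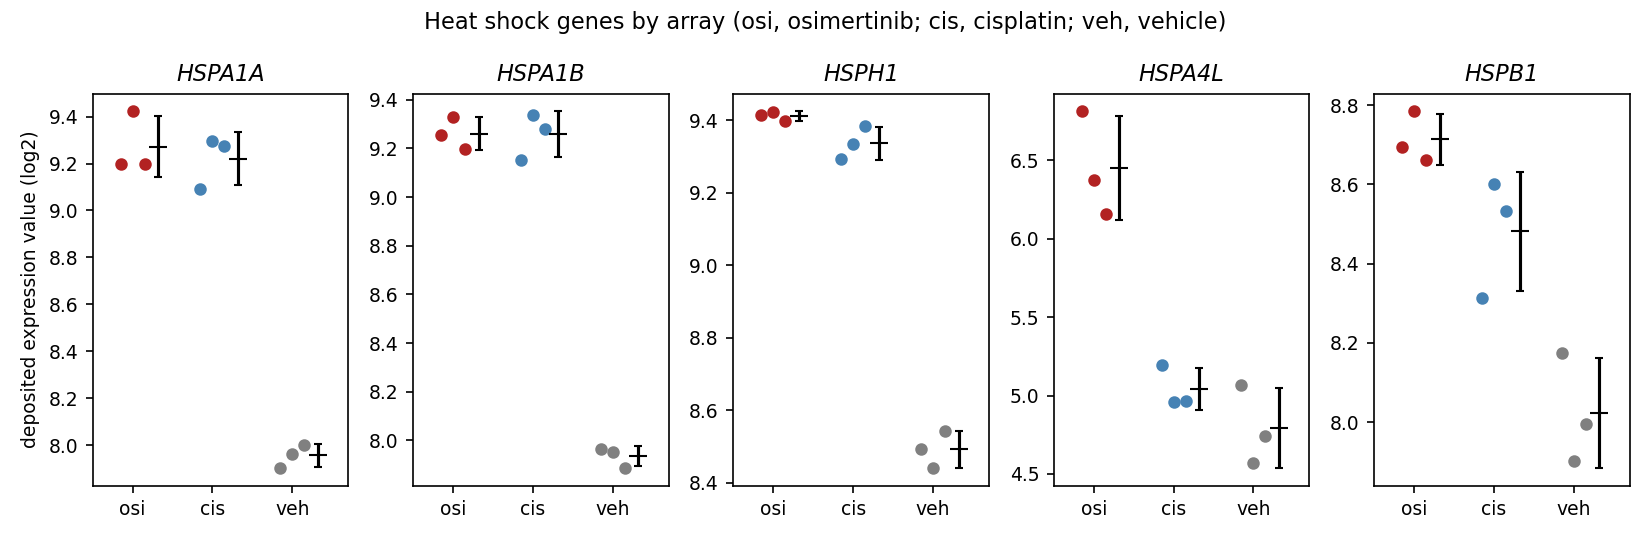
Deposited log2 value (y axis, its own range in each panel) of the brightest row of each gene, by group on the x axis. Points are the 3 arrays of a group in replicate order, and the bars beside them give the mean and SD. The cisplatin arrays of HSPA4L overlap the vehicle arrays, while in the other 4 genes they lie above them.

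Each gene's place among all tested genes is a description too, since these contrasts chose them. With osimertinib minus vehicle, HSPA4L was the 5th largest of 7442 differences, HSPA1B the 19th, HSPA1A the 20th, HSPH1 the 84th and HSPB1 the 207th. With cisplatin minus vehicle the places were 21 for HSPA1B, 28 for HSPA1A, 102 for HSPH1, 600 for HSPB1 and 1588 for HSPA4L. Between the drugs HSPA4L had the largest difference in favour of osimertinib of all 7442 genes, HSPB1 was 430th, HSPH1 2288th, HSPA1A 2779th and HSPA1B 3874th. The median over the 5 genes was 1.32 with osimertinib minus vehicle, 0.84 with cisplatin minus vehicle and 0.07 between the drugs, against 0.037, 0.032 and 0.0098 over all tested genes.

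All 3 osimertinib arrays lay above all 3 vehicle arrays in 5 of 5 genes, where 24.6% of tested genes did so. The cisplatin arrays did so in 4 of 5, against 22.5% of tested genes, and the osimertinib arrays lay above the cisplatin arrays in 3 of 5, against 7.44%. Nothing is read from these counts, because the genes were chosen on them.

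**Figure D3:**
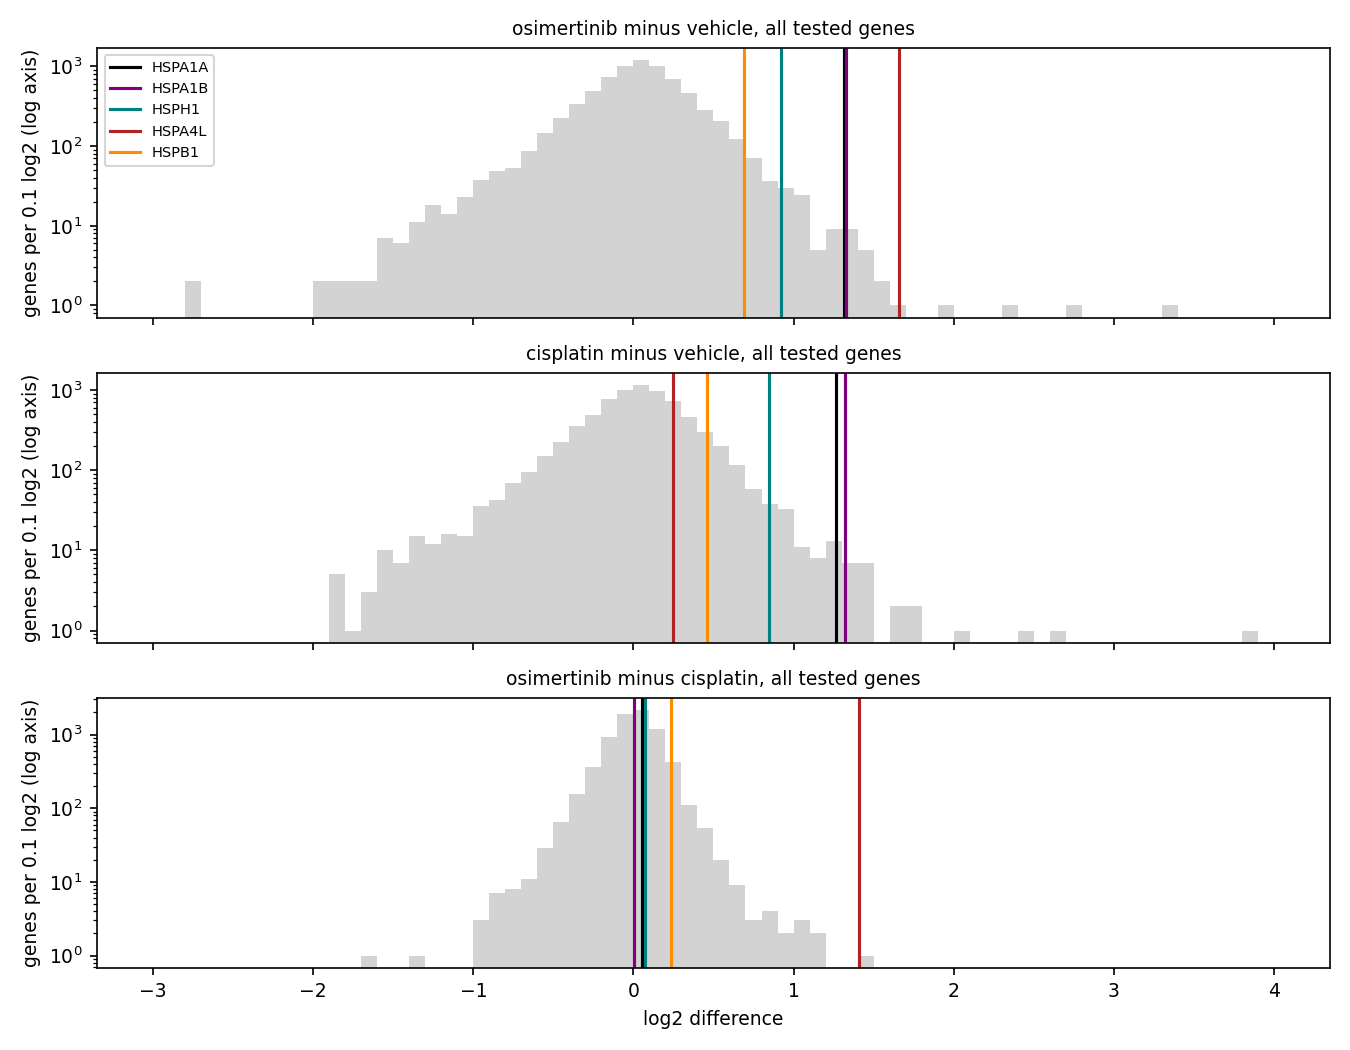
Histograms of the log2 difference (x axis) over the 7442 tested genes in 3 comparisons, with the number of genes per bin of 0.1 on a log axis, and coloured lines at the 5 heat shock genes. HSPA4L moves from the right tail with osimertinib minus vehicle, at 1.66, into the bulk with cisplatin minus vehicle, at 0.25, and lies furthest right between the drugs, at 1.41.

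The genes nearest to each of the 5 were found by the root mean square distance between log2 profiles over the 9 arrays, each centred on its vehicle mean. HSPA1A and HSPA1B were 0.066 apart, nearer to each other than either was to the other genes named next. Next to HSPA1A came VPS18 (0.11), PRMT6 (0.12) and the pseudogene GGT3P (0.14), and next to HSPA1B JUN (0.10), PRMT6 (0.11) and VPS18 (0.13). HSPH1 lay nearest to USF1 (0.045), ACLY (0.060) and TMEM164 (0.075), and HSPB1 to TIE1 (0.075), KLF7 (0.078) and SLC49A4 (0.081). HSPA4L had no close neighbour: ODC1 came first at 0.25, with a difference from vehicle of 1.41 with osimertinib and 0.41 with cisplatin, ahead of PPDPF (0.34) and SUCNR1 (0.35).

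The rest of the chaperone system was measured in part. Of 127 other heat shock and chaperone genes in 10 lists by role, 46 were named in the table and 36 tested. The genes HSF2, HSPA8, HSPA5, HSP90AA1, HSP90AB1 and DNAJB1 were not analysed here. With osimertinib, 16 of the 36 rose and 0 fell against vehicle (44.4% higher, against 16.9% of all tested genes, of which 13.7% fell; 17 had an unadjusted p under 0.05), and their median difference was 0.20. With cisplatin, 14 of 36 rose (38.9%, against 16.5%) and 1 fell (14.5% of all tested genes fell), with a median of 0.12. Calls are limma with Benjamini-Hochberg adjustment over the 7442 genes, and both comparisons use the same 3 vehicle arrays. HSPA1L is among the genes that rose and CHORDC1 is the 1 that fell. Each passed the level limit only through the groups where it is high. The numbers that rose stood at 15 to 17 with osimertinib and 14 to 15 with cisplatin when 1 array was left out. Under the other processing settings they ran from 14 to 20 with osimertinib and from 11 to 15 with cisplatin. Both were lowest with the stricter level limit and highest with quantile normalization on top. Under the stricter limit HSPA1L, IER5 and SDF2L1, which rose with each drug, were among the genes no longer tested.

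HSF1, the activator of the response, and HSBP1, a small protein that binds it, rose with both drugs, whereas HSF4 did not pass. HSF1 measured 6.36, 6.38 and 6.22 with osimertinib, 6.25, 6.25 and 6.23 with cisplatin and 5.89, 5.98 and 5.85 with vehicle, so the treated arrays were all above vehicle. Its difference was 0.41 with osimertinib (adjusted p = 0.00206 by limma) and 0.34 with cisplatin (adjusted p = 0.00756). HSBP1 was 0.52 higher with osimertinib and 0.53 higher with cisplatin.

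Over all tested genes, 16.9% rose with osimertinib and 16.5% with cisplatin, and 13.7% and 14.5% fell. Among the other HSP70 and HSP110 genes outside the endoplasmic reticulum, 3 of 5 tested (60%) rose with each drug and 0 fell. They were HSPA1L (0.75 with osimertinib, 0.91 with cisplatin), a mainly testicular HSP70, the HSP110 gene HSPA4 (0.51 and 0.51) and the mitochondrial HSP70 gene HSPA9 (0.33 and 0.39). HSPA1L averaged 4.82 with osimertinib, 4.97 with cisplatin and 4.06 with vehicle. It passed the level limit of 4.28 only through the drug groups, so its calls add nothing to that share. HSPA12A and HSPA14 did not pass. HSPA4 measured 7.75, 7.76 and 7.56 with osimertinib, 7.56, 7.76 and 7.74 with cisplatin and 7.15, 7.14 and 7.24 with vehicle. Its drug means were 0.0030 apart, and its osimertinib and cisplatin arrays overlapped, where those of its relative HSPA4L did not. The annotated span of HSPA1L, on the minus strand, lies 260 bases from that of HSPA1A, on the plus strand, and 3 of its 5 rows also held equal values. What its rows share with those of HSPA1A was not tested. TRAP1, the mitochondrial HSP90, rose by 0.53 with osimertinib and 0.55 with cisplatin.

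BAG3, a nucleotide exchange factor that is itself induced by heat, measured 7.40, 7.35 and 7.34 with osimertinib, 7.44, 7.65 and 7.61 with cisplatin and 6.98, 7.12 and 6.97 with vehicle. It rose by 0.34 with osimertinib (adjusted p = 0.00337 by limma) and by 0.54 with cisplatin (adjusted p = 1.15e-04). Its cisplatin arrays lay above its osimertinib arrays, the order opposite to that of HSPA4L, but the drugs did not differ by the test (-0.20 for osimertinib minus cisplatin, adjusted p = 0.266). BAG2, an exchange factor of another kind, rose by 0.29 with osimertinib (adjusted p = 0.0251 by limma), a call lost without osimertinib replicate 1 (0.0957) or 2 (0.0773) or vehicle replicate 1 (0.0583), 2 (0.0729) or 3 (0.0522). BAG1, BAG4 and BAG5 did not pass with either drug. With quantile normalization on top, BAG4 and BAG5 passed with osimertinib (limma, adjusted p = 0.0217 and 0.0244) and BAG2 with cisplatin (0.0101).

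Of the 10 tested genes that link HSP70 to HSP90 or act beside HSP90, 3 rose with each drug (30%). Over all tested genes, 16.9% rose with osimertinib and 16.5% with cisplatin. STIP1, the adaptor between the chaperones, rose by 0.35 with osimertinib and 0.46 with cisplatin, the co-chaperone PTGES3 by 0.55 and 0.47, and the mitochondrial import receptor TOMM70 by 0.44 and 0.44. PTGES3 has a second row with differences of 0.05 and -0.0083, and the mean of its rows did not pass with cisplatin (adjusted p = 0.0872). CHORDC1, an HSP90 co-chaperone, averaged 4.23 with osimertinib, 4.12 with cisplatin and 4.51 with vehicle. Only its vehicle mean lay above the level limit of 4.28. CHORDC1 fell by 0.39 with cisplatin (adjusted p = 0.0385 by limma). That call was lost without cisplatin replicate 1 (0.137) or 2 (0.0512) or vehicle replicate 1 (0.127) or 3 (0.0834), with the replicate number as a block (0.0544), with quantile normalization on top (0.0739) and without the level limit (0.0687).

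In the chaperonin list only the mitochondrial HSPD1 was tested, at 0.26 with osimertinib (adjusted p = 0.0561 by limma) and 0.17 with cisplatin (0.195). With osimertinib it passed with quantile normalization on top (adjusted p = 0.0282), with the stricter level limit (0.0332), without osimertinib replicate 3 (0.0205) and without vehicle replicate 3 (0.0402), and its adjusted p over all alternatives ran from 0.0205 to 0.23. The J-domain genes GAK and SEC63 lay between -0.11 and 0.06 and did not pass. Among 6 chaperones of the endoplasmic reticulum, SDF2L1 (0.47 with osimertinib, 0.54 with cisplatin) and HYOU1 (0.26 and 0.32) rose with each drug and CANX rose with osimertinib by 0.16, a call lost with quantile normalization on top (adjusted p = 0.109), with median centring (0.0608) and without trend and robust fitting (0.109). CALR, CRELD2 and MANF did not pass, but CALR was called lower with osimertinib with quantile normalization on top (limma, adjusted p = 0.00845). Of 10 tested genes in a cross-cutting list of heat-inducible genes, 5 rose with osimertinib and 0 fell, and 5 rose and 1 fell with cisplatin. The share that rose was 50% with each drug, against 16.9% of all tested genes with osimertinib and 16.5% with cisplatin. Besides BAG3, STIP1 and HSPA4 the genes that rose were DEDD2, at 0.75 and 0.80, and IER5, at 0.55 and 0.51. HSPD1, PPID, CACYBP and UBB did not pass, and CHORDC1 is the 1 that fell. With quantile normalization on top, PPID passed with osimertinib (limma, adjusted p = 0.0421).

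**Figure D4:**
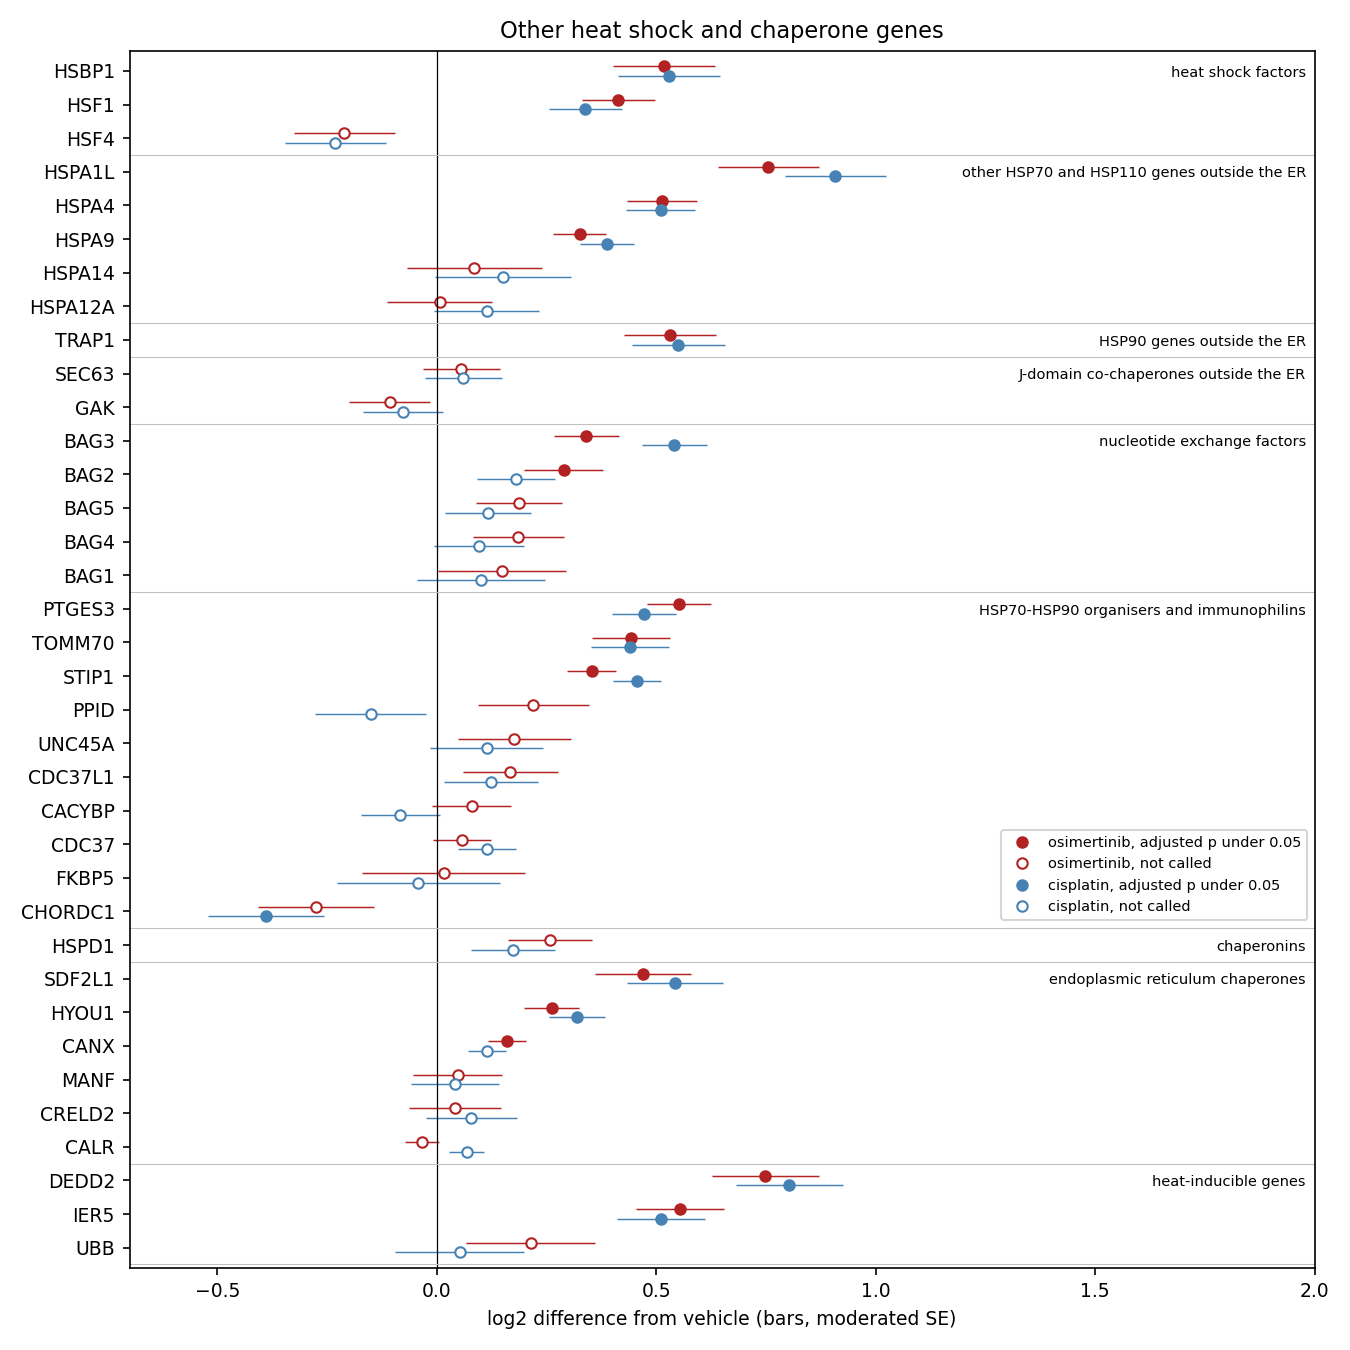
Log2 difference from vehicle (x axis, bars are moderated standard errors) of the 36 other tested heat shock and chaperone genes (y axis), ordered by list. Filled points passed an adjusted p of 0.05 and open points did not. The differences run from -0.39 for CHORDC1 with cisplatin to 0.91 for HSPA1L with cisplatin. Both of these genes passed the level limit only through the groups where they are high. PPID, HSPA1L and BAG3 are among the genes whose red (osimertinib) and blue (cisplatin) points lie apart. None of the 36 genes differed between the drugs by limma, where the lowest adjusted p was 0.222.

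Between the drugs, 0 of these 36 genes differed by limma, where 1.75% of all tested genes did, and 3 had an unadjusted p under 0.05. Their differences for osimertinib minus cisplatin ran from -0.20 (BAG3) to 0.37 (PPID), and the lowest adjusted p was 0.222. HSPA4L, at 1.41, is outside that range, and the other 4 of the 5 genes, at 0.0031 to 0.23, are inside it. HSPA4L was named for its value with osimertinib, so this is a description of where it lies.

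GAANNTTC occurred before at least 1 start of 6 of the 32 other tested heat shock genes that have a RefSeq window (18.8%), of 3 of the 5 genes HSPA1A, HSPA1B, HSPH1, HSPA4L and HSPB1, and of 5.31% of all tested genes with a window. TTCNNGAA occurred in 4 of the 32 (12.5%), in 1 of the 5 and in 7.23% of tested genes. These counts are not all separate. HSPA1L and HSPA1A lie 260 bases apart on opposite strands, so the 250 bases before each are largely the same stretch. The GAANNTTC match of HSPA1A can therefore count among the 32 as well as among the 5. The windows of HSPA1A and HSPA1B, both among the 3, were 93.6% identical.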

How the data were processed

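Per the labels' protocols, total RNA of each culture was hybridised to 1 Affymetrix array, and a service provider used standard Affymetrix pipelines with values summarized per gene. The submitters' processing notes list Affymetrix Power Tools. How background was corrected and probes were summarized, and which log base was used, is not stated in the sources at hand. The deposited values run from 0.65 to 13.2 and were therefore taken as log2; another base would change the folds and not the calls. No read depth exists for arrays, and their number limits the precision.

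The platform annotation named 16098 of 53617 rows, all matched to RefSeq (GRCh38.p14) by Entrez identifier, and left 37519 unnamed. For each of the 14884 genes the row with the highest mean was used, and the 7442 genes at or above the median gene mean of 4.28 were tested in 1 limma fit (3.58.1, R 4.3.3) with 3 group means, 6 residual degrees of freedom, a variance trend and robust empirical Bayes. P-values were two-sided and adjusted by Benjamini-Hochberg. The fit was tested on simulated data.

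The 5 genes and the lists were chosen with earlier results of these data known. Named besides the 5 were all called genes of a list, or the 4 with the smallest p where more were called, 9 fixed genes, and the 3 nearest genes to each of the 5, leaving out non-coding and provisional symbols. Further list members were chosen for naming with their values in view. Alternatives were quantile normalization on top, median centring, no or a stricter level limit, plain empirical Bayes, the mean of a gene's rows, a replicate block and leaving out each array. Promoter windows were aligned with Biopython 1.88. Replicate numbers were not taken as pairs.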

Additional observations from a re-analysis of the deposited data

How the results depend on the processing

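Of 195 differences of the 5 genes recomputed under the alternatives, 69 equalled the reported value, by construction (the balanced replicate block, an array left out of the group not compared, or a mean over rows for genes with 1 distinct row), and the 126 that differed moved by less than the larger SD of the 2 groups. In 5 of the 126 the sign turned, all for osimertinib minus cisplatin: HSPA1B with median centring (-0.0051), and HSPA1A and HSPA1B without osimertinib replicate 2 (-0.02 and -0.03) or without cisplatin replicate 1 (-0.01 and -0.05). The median over the 5 kept its direction in each comparison under all alternatives that could change it, at 0.82 to 0.87 for cisplatin minus vehicle, 1.24 to 1.35 for osimertinib minus vehicle and 0.053 to 0.098 between the drugs when 1 array was left out.

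Among the 36 other heat shock genes, the number lower with cisplatin was 1, and 0 with the replicate block, with quantile normalization on top, without the level limit and with the stricter limit; leaving out 1 array gave 0 to 1. With osimertinib 0 were lower, and 1 with quantile normalization on top. Over all genes, quantile normalization on top moved the calls with cisplatin to 1968 higher and 975 lower, against 1227 and 1081, and those with osimertinib to 2005 higher and 932 lower, against 1255 and 1022. Between the drugs, 57 genes were higher with osimertinib and 73 lower. Those counts were 96 and 122 with quantile normalization on top, 115 and 124 with median centring, 33 and 43 without the level limit and 28 and 35 without trend and robust fitting, and leaving out 1 array gave 24 to 45 higher and 27 to 112 lower. Without the level limit more genes were tested. Under the stricter limit fewer were, and CHORDC1, HSPA1L, IER5 and SDF2L1 were among those left out. The cause of the other shifts was not tested.

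Deviations of same-numbered arrays correlated at -0.23 to 0.13 over the tested genes, so the numbers show no pairing. With the replicate block, 14 of the 36 other heat shock genes were higher with cisplatin and 16 with osimertinib, and over all genes 1128 were higher with cisplatin.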

Other observations

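Genes below the level limit were not tested, and among them are further heat shock genes. HSPA6, a strictly inducible HSP70, averaged 3.40 ± 0.23 with osimertinib, 3.73 ± 0.31 with cisplatin and 3.50 ± 0.22 with vehicle (SD, n = 3 each). HSPB8, a small heat shock protein that works with BAG3, averaged 2.28, 2.06 and 2.16 in the same order of groups. HSPA2, an HSP70 best known from testis, averaged 4.07 ± 0.19, 3.95 ± 0.13 and 3.51 ± 0.45 (SD, n = 3 each), and its arrays overlapped in every comparison. ST13, which steers HSP70 to HSP90, averaged 3.32 with osimertinib, 2.90 with cisplatin and 3.26 with vehicle.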
